A study of Homo sapiens with 6 samples.

Results

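The genes described here encode the proteasome, namely the subunits of its core and regulatory particles, its assembly chaperones and its activators. Members were chosen by name. They are the protein-coding genes whose symbol begins with PSMA, PSMB, PSMC, PSMD, PSME, PSMF or PSMG followed by a digit, together with POMP. This rule found 51 of the 60676 genes in the tables, on 18 chromosomes. Of these, 49 have a role in the proteasome, and 2 match by symbol alone. PSMC3IP, a factor of meiotic recombination, and PSME3IP1, an interactor of the activator PSME3, were therefore kept apart from the counts below. RNA was sequenced from the human neuroblastoma line SK-N-BE after transfection with a scrambled siRNA (si-SCR) or with an siRNA pool (si-CyCoNP) that targets CyCoNP, a long noncoding RNA. Each group held 3 libraries. Cells of both groups were kept for 1.5 days in differentiation medium with 10 μM retinoic acid, so that the control cells were differentiating too, and no untransfected cells are among these libraries. With 1 pool of siRNAs, the loss of CyCoNP and effects of the siRNAs on other transcripts cannot be told apart. The labels number the replicates but do not say that they were separate cultures, so p-values measure the spread between these samples, which may be technical.

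The proteasome degrades proteins that carry ubiquitin chains. Its barrel-shaped core (the 20S particle) is built of outer alpha rings, which gate the entry, and inner beta rings, which hold the peptidase sites. A regulatory particle (the 19S particle) caps the core with a base, whose ring of ATPases unfolds substrates and threads them inwards, and a lid, which removes the ubiquitin chain. Subunits assemble in fixed proportions, and the factor NFE2L1 is known to raise the transcription of many proteasome genes when degradation falls short. PSMC4 RNA, which encodes one of the base ATPases, was recovered with CyCoNP in the RNA pull-down of the study, which names it as an interactor of CyCoNP. The question here was whether the change of PSMC4 upon CyCoNP depletion was shared by the rest of the complex.

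Levels are given as FPKM (fragments scaled to gene length in kilobases and to the library total). The length is 1 fixed value per gene and need not be that of the transcripts expressed. Comparisons of level between genes, and sums over genes, therefore depend on it. Fold changes and tests come from the counts of all genes with a mean of at least 1 FPKM in either group, which were 13966 genes, fitted with the quasi-likelihood test of edgeR and adjusted with the Benjamini-Hochberg procedure. A gene passed the test at an adjusted p under 0.05. The SE printed with a log2 fold change was derived from the test, as its absolute value over the square root of the F statistic. The libraries held between 3762009 and 4799407 counted fragments. These are totals of the count table, much smaller than the read numbers stated for the sequencing, and the step between them was not analysed here. The targeted gene, LINC02381 (CyCoNP), stood at 14.9, 12.9 and 15.4 FPKM in the si-SCR libraries and 0.973, 1.65 and 0.676 FPKM in the si-CyCoNP libraries, and fell by 3.78 on the log2 scale (SE 0.190, adjusted p = 6.95e-14). The neuroblastoma label was checked against 8 marker genes of sympathoadrenal cells, which were all measured and ranged from 20.7 to 738 FPKM. Of these 8 markers, 6 were lower in si-CyCoNP and none was higher, against 14.2% lower and 14.2% higher among all genes tested. Their summed level ranged from 1480.0 to 1737 FPKM in the si-SCR libraries and from 1038 to 1089 FPKM in the si-CyCoNP libraries. Among markers of other cells, the immune genes PTPRC and CD3E, the endothelial genes PECAM1, CDH5 and VWF and the fibroblast gene COL1A2 were at or near 0. CD14 was higher (log2 fold change 1.21, adjusted p = 0.0100), COL1A1 was higher (log2 fold change 1.68, adjusted p = 8.62e-06) and DCN was lower (log2 fold change -0.82, adjusted p = 2.24e-04), and the summed level ranged from 1.58 to 1.96 and from 2.49 to 5.44 FPKM for the 3 immune genes and from 2.97 to 4.36 and from 3.04 to 3.42 FPKM for the 3 fibroblast genes in the si-SCR libraries and in si-CyCoNP. The part of these marker changes in the values below was not tested. In bulk libraries a smaller share of cells expressing a gene and less RNA per cell cannot be told apart.

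Most of the proteasome genes were higher after CyCoNP depletion. Of the 49 genes with a proteasome role, 43 reached the expression filter, all of them in both groups, and 28 of these passed the test with a higher level in si-CyCoNP and 1 with a lower level. Among all genes tested, 14.2% were higher and 14.2% were lower, against 65.1% and 2.33% of the proteasome genes. The median log2 fold change was 0.44 over the 43 genes and 0.01 over all genes tested, and 35 of the 43 genes had a positive value against 50.6% of all genes. In 32 of the 43 genes all si-CyCoNP libraries lay above all si-SCR libraries (20.1% of all genes), and in 1 they all lay below (20.0% of all genes). The changes were moderate. With the thresholds used by the study, which also ask that the log2 fold change lie above 1 or below -1, 0 of the 43 genes passed, against 5.26% of all genes. Values shift with the scaling of the libraries. With library totals alone, 17.6% of all genes were higher and 11.3% lower, and 32 of the 43 proteasome genes were higher and 1 was lower.

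**Figure D1:**
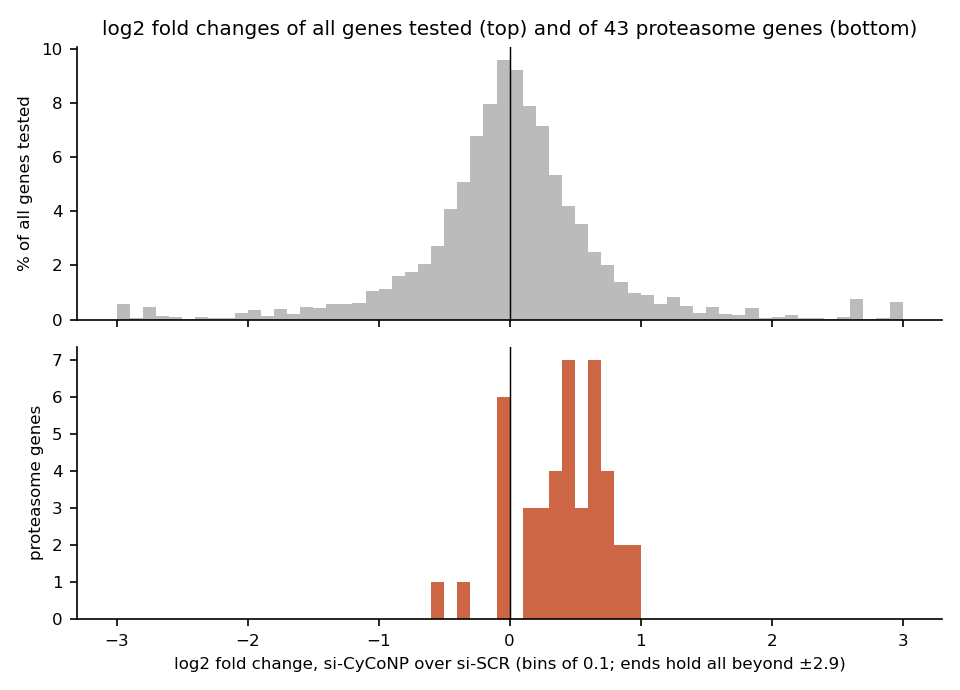
Histogram of log2 fold changes (si-CyCoNP over si-SCR, bins of 0.1) for all 13966 genes tested, as a percentage, and for the 43 proteasome genes, as a number of genes. All genes centre near 0 with a median of 0.01, whereas the proteasome genes lie mostly to the right with a median of 0.44 and none above 1.

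The share of each library was taken over all genes with a proteasome role, without the 2 genes matched by symbol alone. Together these genes took 0.473%, 0.478% and 0.498% of the counted fragments in the si-SCR libraries and 0.717%, 0.690% and 0.716% in si-CyCoNP. The mean share was 0.483% ± 0.0131 and 0.708% ± 0.0151 (SD, n = 3), and the groups did not overlap.

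**Figure D2:**
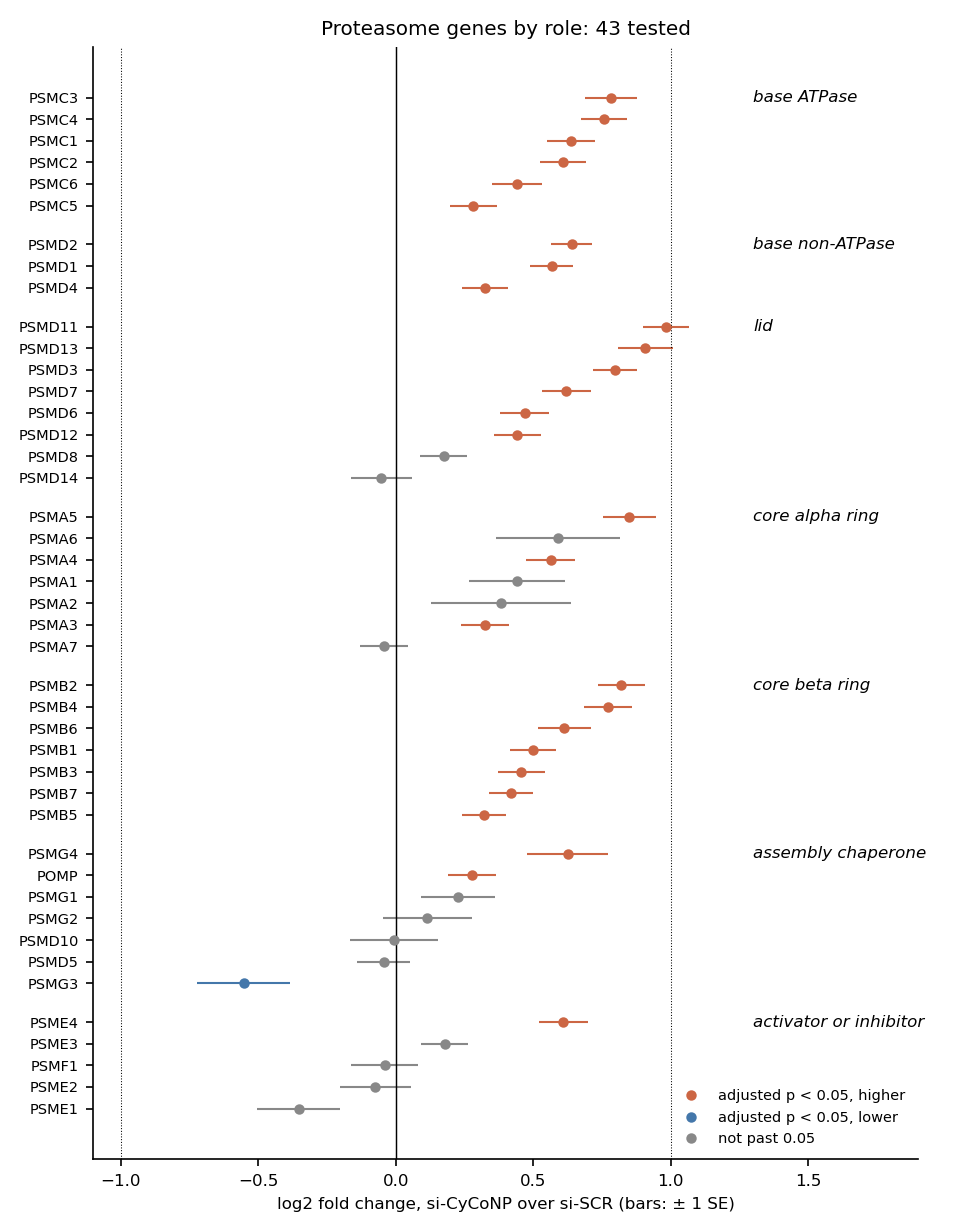
Log2 fold change (si-CyCoNP over si-SCR) of each of the 43 proteasome genes tested, grouped by role, with bars of 1 SE and dotted lines at 1 and -1. All genes of the base and of the core beta ring are higher, PSMD11 is nearest to the line at 1, and PSMG3 is the 1 gene past the test on the lower side.

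The ATPases of the 19S base were examined first. PSMC4 (ENSG00000013275, chromosome 19, 39971165 to 39981764 on the plus strand, GRCh38) stood at 47.3, 47.6 and 49.7 FPKM in the si-SCR libraries and 80.7, 87.8 and 88.0 FPKM in the si-CyCoNP libraries. All si-CyCoNP libraries lay above all si-SCR libraries, and the level rose 1.69-fold (log2 fold change 0.76, SE 0.0836, adjusted p = 7.27e-08, edgeR quasi-likelihood test). The other 5 ATPases rose as well. PSMC3 stood at 34.7, 31.9 and 39.6 FPKM in the si-SCR libraries and 61.1, 65.5 and 65.4 FPKM in the si-CyCoNP libraries (log2 fold change 0.78, SE 0.0935, adjusted p = 2.58e-07). PSMC1 stood at 20.4, 17.7 and 21.1 FPKM in the si-SCR libraries and 32.9, 31.4 and 32.1 FPKM in the si-CyCoNP libraries (log2 fold change 0.64, SE 0.0870, adjusted p = 2.33e-06). PSMC2 stood at 37.2, 35.7 and 42.0 FPKM in the si-SCR libraries and 60.5, 62.3 and 61.0 FPKM in the si-CyCoNP libraries (log2 fold change 0.61, SE 0.0840, adjusted p = 2.61e-06). In each of these the groups were separate by a wide margin. PSMC6 moved less, with 13.5, 14.7 and 14.2 FPKM in the si-SCR libraries and 20.2, 18.8 and 21.4 FPKM in the si-CyCoNP libraries (log2 fold change 0.44, SE 0.0896, adjusted p = 4.08e-04). PSMC5 moved least, with 34.3, 30.8 and 32.9 FPKM in the si-SCR libraries and 42.6, 40.4 and 41.9 FPKM in the si-CyCoNP libraries (log2 fold change 0.28, SE 0.0850, adjusted p = 0.0129). Its groups were still separate, but the call was lost without si-SCR replicate 2 (adjusted p = 0.0678), without si-CyCoNP replicate 1 (adjusted p = 0.0612) and after leaving out si-CyCoNP replicate 3 (adjusted p = 0.0523).

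**Figure D3:**
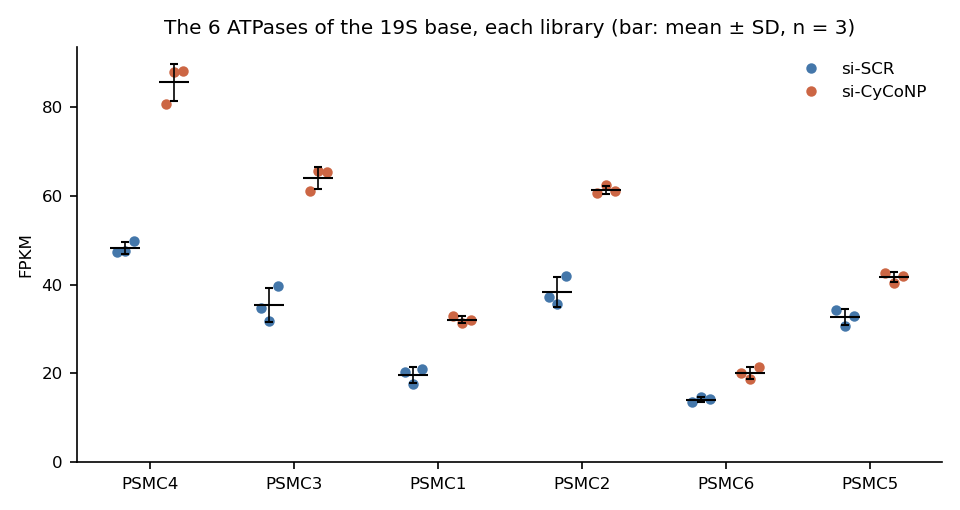
Level in FPKM of the 6 ATPases of the 19S base in each library (points, 3 per group), with the mean and SD. The groups are separate for every gene, from PSMC4 at 47.3 to 49.7 against 80.7 to 88.0 FPKM down to PSMC5 at 30.8 to 34.3 against 40.4 to 42.6 FPKM.

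Within the ATPase ring, PSMC4 thus ranked second by fold change, next to PSMC3. The 95% intervals (estimate ± 1.96 SE) of both genes, 0.59 to 0.92 and 0.60 to 0.97, overlapped almost wholly. The multiplier is that of a normal distribution, so these and later intervals are approximate and narrower than the quasi-likelihood test implies. The interval of PSMC5 was 0.12 to 0.45 and did not reach that of PSMC4. PSMC4 was also the ATPase gene of highest FPKM in every library, but this ranking depends on the gene lengths. PSMC4 has a length of 2550 bases, against 6129 for PSMC1, 4279 for PSMC5 and 7479 for PSMC6. In counts it was not always the highest, with 518 against 630 for PSMC5 in si-SCR replicate 1. The share of PSMC4 in the summed FPKM of the 6 ATPases was 25.3%, 26.7% and 24.9% in the si-SCR libraries and 27.1%, 28.7% and 28.4% in the si-CyCoNP libraries. On the log2 scale, the ratio of PSMC4 to the sum of the other 5 was -1.57, -1.46 and -1.59 in the si-SCR libraries and -1.43, -1.32 and -1.33 in si-CyCoNP, a difference of 0.18 between the means. These ratios are given with no test, since PSMC4 was chosen with its rise known. The summed level of the other 5 ATPases was 140.2 ± 9.55 FPKM in the si-SCR libraries and 219 ± 2.35 FPKM in si-CyCoNP (SD, n = 3).

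The surroundings of PSMC4 on chromosome 19 were examined next. Of 20 annotated genes within 250 kb on either side, 8 were tested, 1 was higher, 0 were lower, and the median log2 fold change was 0.04. The shares of all genes tested were 14.2% higher and 14.2% lower. ZNF780A, a zinc finger gene, was the 1 that passed (log2 fold change 0.40, adjusted p = 0.0328). The next by p-value were DYRK1B (log2 fold change -0.35, adjusted p = 0.0702), ZNF780B (log2 fold change 0.23, adjusted p = 0.208), AKT2 (log2 fold change 0.12, adjusted p = 0.374) and PRR13P5 (log2 fold change 0.70, adjusted p = 0.667), none of which passed the test.

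The base holds 3 further members, and all of them were higher. PSMD1 and PSMD2 are the large scaffold subunits on which other proteins dock. PSMD1 stood at 55.2, 56.8 and 59.1 FPKM in the si-SCR libraries and 90.1, 82.3 and 93.2 FPKM in the si-CyCoNP libraries (log2 fold change 0.57, SE 0.0789, adjusted p = 2.95e-06, edgeR). PSMD2 stood at 59.3, 60.5 and 62.5 FPKM in the si-SCR libraries and 100.2, 98.4 and 99.2 FPKM in the si-CyCoNP libraries (log2 fold change 0.64, SE 0.0752, adjusted p = 2.01e-07). PSMD4, a receptor for ubiquitin chains, stood at 48.7, 53.2 and 52.5 FPKM in the si-SCR libraries and 69.5, 69.7 and 63.4 FPKM in the si-CyCoNP libraries (log2 fold change 0.32, SE 0.0831, adjusted p = 0.00387). No library of one group reached the other in any of these genes, and the change of PSMD4 was the smallest.

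In the lid, 6 of 8 subunits were higher, and PSMD11 had the largest log2 fold change of all 43 genes. PSMD11, a scaffold subunit of the lid, stood at 15.2, 15.4 and 16.9 FPKM in the si-SCR libraries and 31.9, 33.1 and 33.6 FPKM in the si-CyCoNP libraries, about doubling its level (1.98-fold, log2 fold change 0.98, SE 0.0837, adjusted p = 8.39e-10, edgeR), and PSMD13 stood at 14.7, 16.7 and 15.2 FPKM in the si-SCR libraries and 31.4, 27.5 and 32.7 FPKM in the si-CyCoNP libraries (log2 fold change 0.91, SE 0.0992, adjusted p = 6.08e-08). PSMD11 was just short of a log2 fold change of 1, which it exceeded when si-SCR replicate 3 or si-CyCoNP replicate 1 was left out, so that 1 member then passed the thresholds of the study. PSMD3 stood at 41.9, 43.6 and 41.2 FPKM in the si-SCR libraries and 78.7, 78.2 and 74.1 FPKM in the si-CyCoNP libraries (log2 fold change 0.80, SE 0.0788, adjusted p = 1.23e-08). PSMD7, the partner of the deubiquitinating subunit, stood at 38.9, 40.6 and 37.7 FPKM in the si-SCR libraries and 66.7, 61.4 and 60.6 FPKM in the si-CyCoNP libraries (log2 fold change 0.62, SE 0.0879, adjusted p = 3.85e-06). These 4 genes had wide gaps between the groups. PSMD6, which like PSMD12 belongs to the horseshoe-shaped scaffold of the lid, stood at 9.93, 9.003 and 9.95 FPKM in the si-SCR libraries and 14.1, 14.1 and 13.7 FPKM in the si-CyCoNP libraries (log2 fold change 0.47, SE 0.0899, adjusted p = 2.11e-04). PSMD12 stood at 29.8, 27.7 and 27.7 FPKM in the si-SCR libraries and 42.8, 38.2 and 40.2 FPKM in the si-CyCoNP libraries (log2 fold change 0.44, SE 0.0852, adjusted p = 2.23e-04). The lid also held 2 members that did not pass. PSMD8 was between 52.3 and 60.9 FPKM in the si-SCR libraries and between 64.0 and 71.4 FPKM in si-CyCoNP (log2 fold change 0.17, adjusted p = 0.131). PSMD14, the deubiquitinating enzyme of the lid, was between 7.31 and 8.95 FPKM in the si-SCR libraries and between 7.72 and 8.72 FPKM in si-CyCoNP, with overlapping groups (log2 fold change -0.05, adjusted p = 0.770) and a 95% interval of -0.27 to 0.16. The ratio of PSMD11 to PSMD14 in FPKM was 1.70, 2.10 and 2.05 in the si-SCR libraries and 3.66, 3.97 and 4.35 in the si-CyCoNP libraries.

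In the beta rings of the 20S core, all 7 constitutive subunits were higher. The peptidase sites of the constitutive core lie on PSMB5, PSMB6 and PSMB7. PSMB5, which carries the chymotrypsin-like site, stood at 131, 137 and 140.2 FPKM in the si-SCR libraries and 174, 176 and 184 FPKM in the si-CyCoNP libraries (log2 fold change 0.32, SE 0.0792, adjusted p = 0.00281, edgeR). PSMB6, which carries the caspase-like site, stood at 44.1, 41.7 and 42.5 FPKM in the si-SCR libraries and 68.0, 67.2 and 70.5 FPKM in the si-CyCoNP libraries (log2 fold change 0.61, SE 0.0967, adjusted p = 1.79e-05). PSMB7, which carries the trypsin-like site, stood at 107, 108 and 112 FPKM in the si-SCR libraries and 156, 146 and 157 FPKM in the si-CyCoNP libraries (log2 fold change 0.42, SE 0.0798, adjusted p = 1.87e-04). All 3 groups of catalytic values were separate. The other 4 subunits have no peptidase activity of their own. PSMB2 stood at 23.9, 22.0 and 23.8 FPKM in the si-SCR libraries and 44.2, 43.1 and 41.7 FPKM in the si-CyCoNP libraries (log2 fold change 0.82, SE 0.0853, adjusted p = 2.91e-08), and PSMB4 at 72.7, 80.6 and 73.1 FPKM in the si-SCR libraries and 142, 122 and 139.8 FPKM in the si-CyCoNP libraries (log2 fold change 0.77, SE 0.0872, adjusted p = 1.07e-07). PSMB1 stood at 66.0, 63.4 and 60.2 FPKM in the si-SCR libraries and 94.7, 90.5 and 95.7 FPKM in the si-CyCoNP libraries (log2 fold change 0.50, SE 0.0849, adjusted p = 4.83e-05). PSMB3 stood at 91.3, 94.2 and 92.5 FPKM in the si-SCR libraries and 129.7, 139 and 131 FPKM in the si-CyCoNP libraries (log2 fold change 0.46, SE 0.0859, adjusted p = 1.71e-04). The si-CyCoNP libraries were the higher ones throughout, with the widest relative gap in PSMB2.

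The inducible catalytic subunits, which replace the constitutive ones in immune cells or after interferon, did not reach the filter. PSMB8, PSMB9 and PSMB10 of the immunoproteasome and PSMB11 of the thymus had a highest value of 0.716 FPKM in any library. That value belongs to PSMB10, which shares 39.4% of its exon bases with an annotated gene on the same strand, so that its level is uncertain in the same way as those of some alpha ring genes below. PSMB9 had no count in any library. The rise of the beta ring was therefore measured on the constitutive subunits alone.

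In the alpha rings the result differed from gene to gene. Of 7 tested subunits 3 were higher, 0 were lower and 4 did not pass (all genes tested: 14.2% higher and 14.2% lower). PSMA5 stood at 13.5, 13.0 and 15.4 FPKM in the si-SCR libraries and 27.9, 23.6 and 27.9 FPKM in the si-CyCoNP libraries (log2 fold change 0.85, SE 0.0967, adjusted p = 1.16e-07, edgeR). PSMA4 stood at 20.8, 22.0 and 25.7 FPKM in the si-SCR libraries and 34.4, 33.6 and 38.1 FPKM in the si-CyCoNP libraries (log2 fold change 0.56, SE 0.0885, adjusted p = 1.67e-05), and PSMA3 at 32.6, 32.7 and 35.7 FPKM in the si-SCR libraries and 41.9, 45.8 and 44.9 FPKM in the si-CyCoNP libraries (log2 fold change 0.32, SE 0.0878, adjusted p = 0.00591). In these 3 genes the groups did not overlap. PSMA7 had by far the highest FPKM of the ring and did not pass the test, with 124.7 to 151 FPKM in the si-SCR libraries and 132 to 153 FPKM in si-CyCoNP (log2 fold change -0.04, adjusted p = 0.769, 95% interval -0.21 to 0.13). Its gene length is 1752 bases against 6994 for PSMA4. In si-CyCoNP replicate 2 it held 981 counts against 998 for PSMA4. The ratio of PSMA5 to PSMA7 in FPKM was 0.109, 0.0893 and 0.102 in the si-SCR libraries and 0.194, 0.179 and 0.182 in the si-CyCoNP libraries. PSMA6 (log2 fold change 0.59, adjusted p = 0.0509), PSMA1 (log2 fold change 0.44, adjusted p = 0.0580) and PSMA2 (log2 fold change 0.38, adjusted p = 0.289) had positive values that did not pass. These 3 genes share 14.1%, 26.7% and 17.2% of their exon bases with an annotated gene on the same strand, and counting drops fragments that lie in both, so that their low levels, from 1.11 to 7.49 FPKM, are less certain. PSMA6 passed under 4 of 16 alternatives, namely upper quartile scaling (adjusted p = 0.0493), library totals alone (adjusted p = 0.0294), the default filter of edgeR (adjusted p = 0.0469) and the replicate block (adjusted p = 0.0360). The call of PSMA1 was gained without si-SCR replicate 3 (adjusted p = 0.0162) and after leaving out si-CyCoNP replicate 1 (adjusted p = 0.0443). It was also gained with library totals alone (adjusted p = 0.0320) and with the replicate block (adjusted p = 0.0245). PSMA8, the testis form, had no count in any library.

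**Figure D4:**
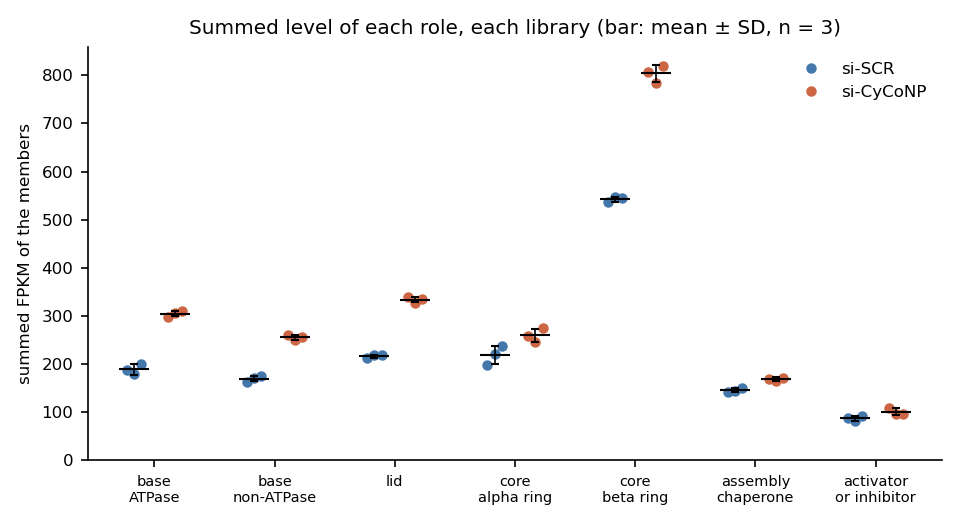
Summed FPKM of the members of each role in each library (points, 3 per group), with the mean and SD. The mean is 542 and 804 FPKM for the beta ring and 188 and 305 FPKM for the ATPases in the si-SCR libraries and si-CyCoNP, and the means of the alpha ring, the assembly chaperones and the activators or inhibitors have ratios of 1.19, 1.16 and 1.15.

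Summed over a role, the 20S core (alpha and beta rings) stood at 761 ± 23.3 FPKM in the si-SCR libraries and 1064 ± 31.5 FPKM in si-CyCoNP (SD, n = 3), and the 19S particle at 573 ± 15.7 FPKM and 893 ± 8.24 FPKM. The ratio of the means was 1.40 for the core and 1.56 for the 19S particle. The ratio of core to 19S was 1.31, 1.35 and 1.32 in the si-SCR libraries and 1.19, 1.17 and 1.22 in the si-CyCoNP libraries, which did not overlap. PSMA7 alone weighs heavily in the sum of the core, and these sums and ratios depend on the gene lengths. The median log2 fold change was 0.62 over the 6 ATPases, 0.57 over the 3 other subunits of the base, 0.55 over the 8 subunits of the lid, 0.50 over the 7 of the beta ring and 0.44 over the 7 tested of the alpha ring.

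Assembly chaperones build the particle but are not part of it. Of 7 tested, 2 were higher, 1 was lower and 4 did not pass (all genes tested: 14.2% higher and 14.2% lower), and the median log2 fold change was 0.12. POMP, which guides the beta ring, stood at 82.8, 76.2 and 78.1 FPKM in the si-SCR libraries and 102, 96.9 and 102 FPKM in the si-CyCoNP libraries (log2 fold change 0.28, SE 0.0873, adjusted p = 0.0179, edgeR). The groups of POMP were separate, but the call was lost without si-SCR replicate 2 (adjusted p = 0.0688), without si-CyCoNP replicate 1 (adjusted p = 0.0728) and after leaving out si-CyCoNP replicate 3 (adjusted p = 0.0724). PSMG3 and PSMG4 form a pair that helps to build the alpha ring, and they moved in opposite directions. PSMG4 stood at 2.10, 1.74 and 1.83 FPKM in the si-SCR libraries and 2.96, 3.27 and 2.94 FPKM in the si-CyCoNP libraries (log2 fold change 0.63, SE 0.147, adjusted p = 0.00181). PSMG3 stood at 10.7, 18.2 and 16.4 FPKM in the si-SCR libraries and 9.72, 10.7 and 11.9 FPKM in the si-CyCoNP libraries (log2 fold change -0.55, SE 0.170, adjusted p = 0.0146). The groups of PSMG3 overlapped, as si-SCR replicate 1 lay within the range of the si-CyCoNP libraries, and the call was lost without si-SCR replicate 2 (adjusted p = 0.115) and after leaving out si-CyCoNP replicate 1 (adjusted p = 0.0624). The other pair of alpha ring chaperones did not pass, with PSMG1 (log2 fold change 0.23, adjusted p = 0.234) between 12.4 and 18.3 FPKM and PSMG2 (log2 fold change 0.12, adjusted p = 0.641) between 6.50 and 9.88 FPKM over the 6 libraries. PSMG1 passed without si-SCR replicate 3 (adjusted p = 0.0442). Among the chaperones of the base, PSMD5 (log2 fold change -0.04, adjusted p = 0.784) lay between 17.6 and 19.4 FPKM and PSMD10 (log2 fold change -0.01, adjusted p = 0.981) between 7.56 and 8.28 FPKM, and PSMD9 stayed under the filter with at most 0.966 FPKM, a level that is uncertain because 14.9% of its exon bases lie in another gene on the same strand.

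Alternative caps of the core formed the last group, in which 1 of 5 members was higher and 0 were lower. Among all genes tested, 14.2% were higher and 14.2% lower. PSME4, a large activator of a single chain, stood at 12.9, 13.7 and 11.8 FPKM in the si-SCR libraries and 21.9, 20.2 and 19.2 FPKM in the si-CyCoNP libraries (log2 fold change 0.61, SE 0.0891, adjusted p = 6.10e-06, edgeR). PSME1 and PSME2 form the activator that interferon induces. PSME1 was between 12.9 and 17.1 FPKM in the si-SCR libraries and between 11.4 and 12.9 FPKM in si-CyCoNP and did not pass (log2 fold change -0.35, adjusted p = 0.0834), although it was the 1 gene whose si-CyCoNP libraries all lay below. PSME2 was between 9.20 and 11.2 FPKM over the 6 libraries (log2 fold change -0.07, adjusted p = 0.718). PSME3, the nuclear activator, was between 40.5 and 57.0 FPKM (log2 fold change 0.18, adjusted p = 0.124). It passed without si-SCR replicate 3 (adjusted p = 0.0498), with library totals alone (adjusted p = 0.0319) and with the replicate block (adjusted p = 0.0433). PSMF1, an inhibitor of the core in the test tube, was between 4.27 and 5.79 FPKM (log2 fold change -0.04, adjusted p = 0.846). Of the genes matched by symbol alone, PSME3IP1 was lower, with 22.2, 24.7 and 23.9 FPKM in the si-SCR libraries and 16.3, 16.9 and 18.4 FPKM in the si-CyCoNP libraries (log2 fold change -0.52, adjusted p = 1.31e-04), and PSMC3IP did not pass (log2 fold change 0.21, adjusted p = 0.379).

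Several signs of uncertain counting were checked. Reads that map to more than one place were not counted, and 18 of the 51 members have at least 1 annotated pseudogene, with 13 for PSMC1. The 44 pseudogenes that match the PSM symbols (that of POMP was left out) held 49 counts in all over the 6 libraries. Since reads shared with a pseudogene were not counted, this does not measure how many the members lost. Correcting each library for GC content and gene length, a step chosen after seeing the data, left 25 of the 43 genes higher and 2 lower (PSMG3 and PSME1), with 11.5% of all genes higher and 17.2% lower, and PSMC5, PSMB5 and PSMD4 no longer passed. PSMC4 remained at a log2 fold change of 0.66.

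The genes around the proteasome were then examined by lists written from general knowledge. For these and the later lists, the shares of all genes tested are 14.2% higher and 14.2% lower. Of 11 other subunits and bound factors of the particle, all tested, 6 were higher and 0 lower, with a median log2 fold change of 0.29. ADRM1, a ubiquitin receptor of the base, rose (log2 fold change 0.54, adjusted p = 1.03e-05, edgeR), as did SEM1, the smallest subunit of the lid (log2 fold change 0.57, adjusted p = 2.47e-05). TXNL1, a thioredoxin bound to the particle (log2 fold change 0.59, adjusted p = 8.02e-05), ECPAS, an adaptor of the proteasome (log2 fold change 0.41, adjusted p = 5.01e-04), and USP14, a deubiquitinating enzyme of the particle (log2 fold change 0.35, adjusted p = 0.00383), rose too. Of 10 shuttle factors and members of the segregase that delivers substrates, 5 were higher and 0 lower, with a median of 0.26. The segregase VCP rose (log2 fold change 0.42, adjusted p = 2.23e-04) together with its cofactors NPLOC4 (log2 fold change 0.77, adjusted p = 8.18e-08) and UFD1 (log2 fold change 0.72, adjusted p = 5.64e-06), and so did FAF2, another cofactor (log2 fold change 0.40, adjusted p = 0.00226).

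Ubiquitin itself and the enzymes that activate it formed another list, to be read beside the same shares of all genes (14.2% higher, 14.2% lower). Of 6 ubiquitin and activating enzyme genes, 0 were higher and 1, UBB, was lower (log2 fold change -0.27, adjusted p = 0.0112), with a median of -0.12. As a comparison with other large protein complexes, the COP9 signalosome, which is related to the lid in structure, had 1 of 9 genes higher and 0 lower with a median of -0.07, and COPS4 was the gene that passed (log2 fold change 0.41, adjusted p = 0.0125). The CCT chaperonin, a folding machine of 8 subunits, had 1 gene higher, CCT5 (log2 fold change 0.23, adjusted p = 0.0257), 1 lower, CCT3 (log2 fold change -0.24, adjusted p = 0.0154), and a median of -0.09. Of 8 partners in the interferon gamma response, 5 were tested, 0 were higher and 1 was lower, with a median of -0.23. The difference between these lists and the proteasome genes was not tested.

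**Figure D5:**
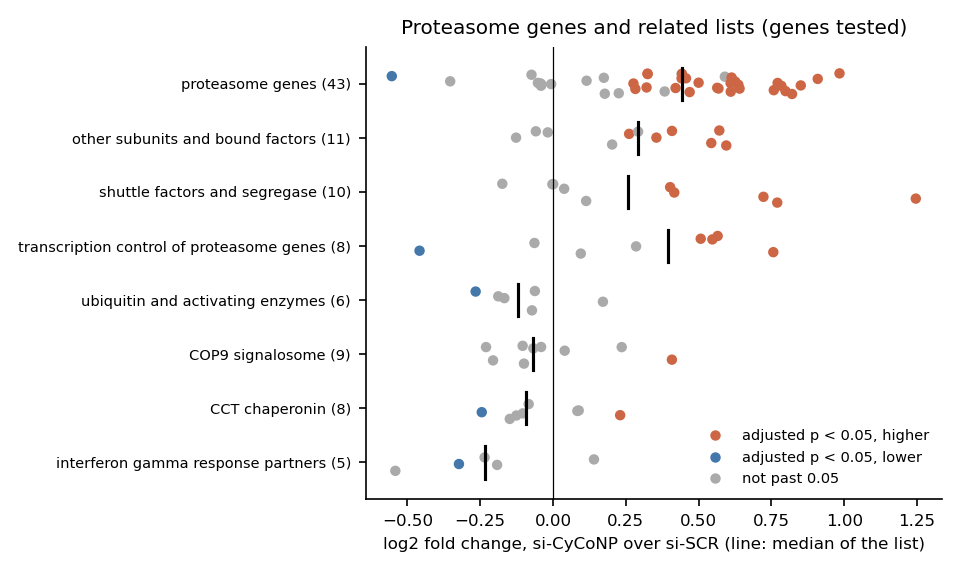
Log2 fold change (si-CyCoNP over si-SCR) of each tested gene of the proteasome and of 7 related lists (number tested in brackets), coloured by call, with a line at the median of each list. The median is 0.44 for the proteasome genes, 0.40 for their transcription control and -0.07 and -0.09 for the COP9 signalosome and the CCT chaperonin.

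Among 8 tested genes of 9 that control the transcription of proteasome genes, 4 were higher and 1 was lower, with a median of 0.40. NFE2L1 stood at 33.8, 34.2 and 37.3 FPKM in the si-SCR libraries and 50.2, 53.1 and 53.5 FPKM in the si-CyCoNP libraries (log2 fold change 0.51, SE 0.0793, adjusted p = 1.58e-05, edgeR). DDI2, the protease that activates the NFE2L1 protein, stood at 2.08, 1.44 and 2.10 FPKM in the si-SCR libraries and 2.75, 3.69 and 3.60 FPKM in the si-CyCoNP libraries (log2 fold change 0.76, SE 0.154, adjusted p = 4.11e-04), and the groups of both genes were separate. The small MAF partners of NFE2L1 gave MAFG higher (log2 fold change 0.57, adjusted p = 1.01e-04) and MAFF higher (log2 fold change 0.55, adjusted p = 0.0190), and MAFK was under the filter. NFE2L2, the relative that answers oxidative stress, was lower, at 15.2, 14.6 and 14.8 FPKM in the si-SCR libraries and 10.8, 11.2 and 12.0 FPKM in the si-CyCoNP libraries (log2 fold change -0.46, SE 0.0994, adjusted p = 8.53e-04). NGLY1 (log2 fold change -0.06, adjusted p = 0.854), which removes sugars from NFE2L1, did not pass. These are RNA levels and hold no measure of the processing of the NFE2L1 protein.

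NFE2L1 and its relatives bind an antioxidant response element (ARE), whose core was searched here as TGACNNNGC on both strands in promoter windows from RefSeq (GRCh38.p14), which span 250 bases before to 50 bases after each start. Of the 49 proteasome genes 43 matched a window by symbol, and PSMA7, PSMB1, PSMB6, PSMB7, PSMD4 and PSMG3 were not matched. The core was found in 15 of the 43 genes (34.9%), against 4384 of 27305 genes with a window (16.1%). The 27305 genes were not limited to those tested, nor matched to the members in base content or number of windows. It was found in 8 of 24 genes that were higher (33.3%) and in 5 of 13 tested genes that were not higher (38.5%). The box CCAAT was found in 20 of the 43 genes (46.5%) and in 39.7% of all genes with a window, and in 12 of the 24 genes that were higher and 6 of the 13 that were not. A match is a description of the letters and no measure of binding. The stretches around the core are shown for 7 of the 8 members that rose, to let them be compared, and for 2 that did not pass (PSMD5 and PSMG2). PSMD1, which rose and whose match lies at the edge of the window, holds the core too and is not shown. The same is true of PSME1, PSME2 and PSMG1, which did not pass, and of PSMB9 and PSMD9, which were not tested. Each stretch has 10 bases on either side and the core in capitals, read 5′ to 3′ on the strand named.
PSMC4, chr19:39971182-39971210, minus strand: tcctccatagTGACCAAGCcggcctctgt
PSMC5, chr17:63827654-63827682, minus strand: agggcggcgcTGACACAGCagatccggtc
PSMA4, chr15:78540650-78540678, plus strand: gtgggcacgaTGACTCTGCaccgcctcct
PSMB3, chr17:38752627-38752655, plus strand: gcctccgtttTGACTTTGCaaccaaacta
PSMD3, chr17:39980760-39980788, plus strand: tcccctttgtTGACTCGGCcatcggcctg
PSMD12, chr17:67366724-67366752, minus strand: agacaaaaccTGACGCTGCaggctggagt
PSME4, chr2:53971009-53971037, plus strand: gctctgctggTGACGCTGCagccgccggg
PSMD5, chr9:120843038-120843066, minus strand: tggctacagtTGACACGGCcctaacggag
PSMG2, chr18:12658689-12658717, plus strand: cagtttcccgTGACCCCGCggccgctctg
Places are given from the RefSeq start. For PSMA4, PSMC5 and PSMG2 the GENCODE gene starts further upstream, so that their stretches lie inside it. In PSMC4 the match lies just downstream of the start and on the strand opposite to the gene, and in PSMA4, PSMB3, PSMD3 and PSMD12 it lies upstream on the strand of the gene. PSMD3, with the largest change among these genes at a log2 fold change of 0.80, held a further match on the opposite strand. PSMD11, PSMD13, PSMA5 and PSMB2, which changed more, held none in their windows.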

How the data were processed

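RNA was sequenced from 6 libraries of SK-N-BE cells, 3 treated with si-SCR and 3 with si-CyCoNP, grouped by their titles. Per the labels and the methods of the study, the authors prepared stranded total RNA libraries after ribosomal RNA depletion, trimmed reads with Trimmomatic 0.39 and cutadapt 3.2, removed ribosomal reads with Bowtie2 2.4.2 and aligned the rest to GRCh38 with STAR 2.7.7a. The deposited count table holds raw counts of uniquely mapping fragments per Ensembl gene, made by the authors with STAR. The deposited FPKM table was made by the authors from the same counts, scaled by gene length and library total, and both tables gave 1 gene length in every library for each of the 22586 genes counted in 2 or more libraries, within a relative tolerance of 1e-06. Totals ranged from 3762009 to 4799407 counts, and intervals from them would cover counting error only, so errors are taken from replicates.

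The 13966 genes whose mean reached 1 FPKM in at least 1 group entered the edgeR 4.0.16 quasi-likelihood test (TMM scaling, R 4.3.3), and p-values were adjusted over all of them by Benjamini-Hochberg. The test was checked on simulated data. Gene symbols, positions and overlaps come from GENCODE, and promoter sequences from RefSeq. The members and lists were chosen with earlier results of these data known. By rule, values in every library are given for the 6 ATPases and for each member past an adjusted p of 0.05, other members are given by level and range, and related lists are named by at most the 5 smallest adjusted p among genes that passed and neighbours of PSMC4 by the 5 smallest p. The values of 2 list members are not reported here, and they enter only the list summaries. NGLY1 and MAFK, and the genes singled out in ratios, were named after their values had been seen. Replicates differed by more than sampling noise (chi-square over its degrees of freedom, 2.42 to 5.16). The alternatives were DESeq2 1.42.0, other scalings (DESeq2 size factors, upper quartile, library totals), other filters (the edgeR default, none), the replicate number as a block, limma 3.58.1 on log2(FPKM + 1) and log2(FPKM + 0.1), each library left out, and an offset for GC content and gene length, chosen after seeing the data.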

Additional observations from a re-analysis of the deposited data

How the results depend on the processing

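The count of proteasome genes higher in si-CyCoNP lay between 25 and 32 under all 16 alternatives, with a median log2 fold change between 0.41 and 0.52. PSMC4 lay between 0.66 and 0.82 and passed under each of them. Of the 28 genes called higher, 24 passed under each alternative, 4 (POMP, PSMC5, PSMB5 and PSMD4) lost the call under at least 1, and 0 changed direction. Of the 14 genes not called, 6 (PSMA1, PSMA6, PSMD8, PSME1, PSME3 and PSMG1) passed under at least 1. With the replicate block, 31 genes were higher and 1 lower. Same-numbered libraries deviated together only weakly (correlations of 0.091, 0.073 and 0.108, each library closest to its own number). Libraries of different number had correlations from -0.067 to -0.023. Whether the numbers mark pairs cannot be decided from these weak values and the labels, and the main test treated the libraries as unpaired. The single lower call, PSMG3, was absent (0 genes) with limma on either FPKM scale, which exceeded the nominal rate of false calls on simulated data, and 2 genes were lower with the offset for GC content and gene length. Leaving out each library gave 26 to 31 genes higher and 0 to 1 lower. The thresholds of the study passed 1 gene, PSMD11, with library totals alone and with limma on both scales, and 0 to 1 when a library was left out. The cause of these moves was not tested. Genes near 0 changed sign without passing the test. With library totals alone the log2 fold change was 0.024 for PSMA7, 0.060 for PSMD10, 0.015 for PSMD14, 0.024 for PSMD5 and 0.027 for PSMF1. In the same order it was 0.026, 0.056, 0.017, 0.022 and 0.011 with limma on log2(FPKM + 1), and 0.027, 0.062, 0.019, 0.023 and 0.012 with a pseudocount of 0.1. With each library left out it ranged from -0.11 to 0.019 for PSMA7, -0.035 to 0.040 for PSMD10, -0.12 to 0.033 for PSMD14, -0.077 to 0.0032 for PSMD5, -0.17 to 0.064 for PSMF1 and -0.0043 to 0.18 for PSMG2.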
